A study of Mus musculus with 16 samples.

Results

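H2-M2-positive macrophages are C1q-expressing macrophages of B16 melanoma tumours in which at least 1 transcript of H2-M2 was counted. They were chosen by a rule on raw UMIs, the unique molecules counted per gene and cell. A cell needed at least 10 UMIs of C1qa, C1qb and C1qc together, no UMI of Cd3d, Cd3e or Cd3g, and at least 1 of H2-M2. It could hold at most 1 UMI of Nos2, at most 2 of Mmp12, at most 1 of Lyve1, Cd163 and Cd209f together, and at most 4 of Rsad2, Ifit1, Ifit2 and Ifit3 together. Of 116552 deposited barcodes, 99357 had at least 200 genes and at most 10% mitochondrial UMIs, and 392 of these (0.395%) met the rule. Another 15686 macrophages passed every condition but the H2-M2 one and are called H2-M2-negative below; the 392 are 2.44% of the 16078 cells in both sets. H2-M2 counts chose the cells, so differences in level between H2-M2-positive and H2-M2-negative cells are given as descriptions, without a test; what is tested between the sets is the size of their response to CD40.

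Leukocytes were taken from tumours grown under the skin of C57BL/6J mice from 1000000 Bro4.1 B16 melanoma cells, either B2m-null or B2m-expressing controls. Treatment was 100 µg of agonistic anti-CD40 or of rat IgG2a isotype control, given on days 6, 9 and 12, and tumours were taken on day 14. Cells were enriched for CD45, tagged by mouse with hashtag antibodies, pooled within a group and run on droplet-based 3′ RNA lanes. The 4 groups were control isotype (2 pools), control CD40 (1 pool run on 2 lanes), B2m-null isotype (2 pools) and B2m-null CD40 (2 pools). Hashtags separated 16 mice, 5, 2, 5 and 4 in that order; the labels used here give neither age nor sex. The genotype label of the samples names the mice as WT or B2M KO, whereas the design text places the deletion in the tumour cells, and that reading was followed. Melanoma cells carried over in the B2m-null lanes had 151 to 385 CPM (counts per 1000000 UMIs) of B2m against 853 to 1986 in control lanes, while gated macrophages had 2514 to 5142 CPM in all 8 lanes. The tumour line and the CD45 enrichment were shared by all groups.

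H2-M2 encodes a non-classical MHC class I heavy chain, a relative of the classical chains that show peptides to CD8 T cells. C1q macrophages are mature tissue macrophages that secrete the C1q complement subunits and clear dying cells. Gpnmb, a glycoprotein of late endosomes and lysosomes, and Fabp5, a chaperone of intracellular fatty acids, are known from lipid-laden and lysosome-rich macrophages. Il18bp is a secreted decoy that binds interleukin-18 and is induced by interferon-gamma. CD40 is a TNF-family receptor on macrophages, dendritic cells and B cells, and its ligation acts through TRAF adaptors on NF-kB transcription factors.

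H2-M2 lies on the minus strand at chr17:37480851-37483552 of mm10, in the MHC, and is annotated as protein coding. Because the treatment acts on a receptor that signals through NF-kB, the promoter of H2-M2 was read for NF-kB consensus matches in RefSeq sequence of GRCm38.p6. The window of 250 bases before to 50 bases after the RefSeq start, chr17:37483505-37483804, held 2 matches. They are shown 5′ to 3′ on the gene's strand, with the consensus match in capitals and 10 bases on each side.
H2-M2 promoter stretch 1: agtctccttaGGGGAATTCCagcaagggaa
H2-M2 promoter stretch 2: tcacaatcctGGAGTTTCCCttcttttgta
The first stretch is chr17:37483715-37483744, with the match 180 to 171 bases before the start, and the second is chr17:37483681-37483710, with the match 146 to 137 bases before it. The matches do not overlap, and 8.46% of all 32851 promoter windows of the same length held at least 1 such match on either strand. The H2-M2 window held none of the GAS (TTCNNNGAA, in 8.30% of windows), AP-1 (TGANTCA, in 7.81%) or CLEAR (CACGTG, in 7.15%) motifs. Gpnmb (chr6:49036546-49070929, plus strand) had 1 AP-1 match in its window, and Il18bp (chr7:102014885-102018690, minus strand) had none of the 4 motifs. Fabp5 is at chr3:10012548-10016607 on the plus strand. These matches describe letters in the window and were not tested as binding sites.

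The cells matched the macrophage part of their name. Summed within each pool, the 9 macrophage markers outside the rule (Adgre1, Cd68, Csf1r, Mertk and others) reached 5147 to 10938.5 CPM, against 4746 to 9990.5 in H2-M2-negative cells. The 6 T cell markers outside the rule summed to at most 38.7 CPM, and mast cell and basophil markers were at 0 in every pool. Monocyte markers summed to at most 1076 CPM and B cell markers to at most 177 CPM. Neutrophil markers reached 758 CPM in B2m-null CD40 pool 2 (100.04 in its H2-M2-negative cells) and at most 210.3 CPM elsewhere. NK cell markers reached 306 CPM in B2m-null CD40 pool 1 (73.8 in its H2-M2-negative cells) and at most 118.7 CPM elsewhere. The part of these markers in the results was not tested. Conventional dendritic cell markers (Ccr7, Fscn1, Cd209a, Flt3 and others) did not sit at 0. They summed to 575 and 429 CPM in control isotype pools, 320 and 426 in B2m-null isotype pools, 57.8 in control CD40 and 54.2 and 64.7 in B2m-null CD40. H2-M2-negative cells had 59.4 to 159 CPM of the same list in all pools. Of the members, 9 held at least 3 UMIs of Ccr7 and Fscn1 together, 6 of them in control isotype and 3 in B2m-null isotype pools. What the calls became without these cells is given beside the genes that fell.

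Lanes held 45985739 to 99264875 UMIs in all, with medians of 1715 to 4225 UMIs per barcode. Lanes shared up to 92 barcode sequences in a pair, but no member shared its barcode with a member of another lane. Members were deeper than H2-M2-negative macrophages, with a median of 7024 UMIs and 2339 genes against 5324 UMIs. Just 1 H2-M2 UMI was present in 200 of the 392 cells (51.0%), 2 in 77, 3 or 4 in 57 and 5 or more in 58, with 33 as the highest count. At the other limits, 59 members held 1 Nos2 UMI and 22 H2-M2-bearing cells fell just outside with 2; for Mmp12, 25 members held 2 UMIs and 16 cells fell just outside with 3. The gates removed much of the H2-M2-bearing population: of 1115 C1q macrophages with an H2-M2 UMI, 392 (35.2%) were members, 508 (45.6%) exceeded the Mmp12 limit and 388 (34.8%) the Nos2 limit, with 221 (19.8%) exceeding both.

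Among gated macrophages, the share with H2-M2 was higher in every CD40 lane than in every isotype lane. It was 0.957% and 1.29% in the control isotype lanes, 5.72% and 5.02% in control CD40, 0.760% and 0.685% in B2m-null isotype, and 2.23% and 4.40% in B2m-null CD40. The level of H2-M2 followed the same order, at 4.50 and 4.84 CPM, 25.2 and 24.7 CPM, 1.67 and 2.06 CPM, and 10.6 and 18.7 CPM. T cells, which should lack the transcript, gave 0% in every isotype lane (allowing up to 0.499% to 1.68%) and 0.210% to 0.346% in CD40 lanes at medians of 1112 to 1950 UMIs. Melanoma cells gave 0 cells with H2-M2 in every lane at medians of 15110 to 38624 UMIs, which allows up to 1.43% to 18.8% since there were 16 to 210 of them. The gated macrophages had medians of 3911 to 8130 UMIs by lane, so the shares compared between mice below were taken after thinning each cell to 3000 UMIs. At that equal depth the CD40 lanes gave 4.13% and 4.34% of gated macrophages against 1.43% and 2.37% of T cells in control tumours, and 1.80% and 2.96% against 1.58% and 0.276% in B2m-null tumours. Only 56 to 228 T cells per CD40 lane were deep enough. In B2m-null CD40 lane 1 the thinned shares lay close, but the T cell value there came from 1 positive cell of 316. The H2-M2 level in that lane was 10.6 CPM in gated macrophages and 1.51 CPM in T cells. Thinned T cells of the isotype lanes gave 0%.

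By mouse, the thinned share was 1.14%, 0.441%, 0.660%, 1.22% and 0.264% in control isotype tumours and 1.29% and 4.83% in control CD40 tumours. Both control CD40 mice lay above all 5 control isotype mice, although the lower of them exceeded the highest isotype mouse by little. Means were 0.746% ± 0.423 (SD, n = 5) and 3.06% ± 2.505 (SD, n = 2), a difference of 2.31 percentage points with an exact two-sided permutation p of 0.0476, the smallest that 5 against 2 mice allow (0.0952 adjusted over 4 comparisons). The difference did not pass the threshold after adjustment, and it rests on 1 mouse, being 0.543 points without it, with 1 CD40 mouse left and so without a test. That mouse gave 164 members among its 2643 gated macrophages, and the other gave 11 among 570.

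In B2m-null tumours the thinned share was 0.708%, 2.68%, 0%, 0.334% and 0.217% under isotype and 2.07%, 2.11%, 3.15% and 3.05% under CD40. Of the 5 isotype mice, 4 lay below all CD40 mice and 1 lay among them; that mouse gave 2 positive cells among 85 before thinning, 47 of which were deep enough to thin, and the mouse at 0% had 24 thinned cells. Means were 0.788% ± 1.09 (SD, n = 5) and 2.59% ± 0.586 (SD, n = 4), a difference of 1.81 points (exact two-sided permutation p = 0.0317; 0.0952 adjusted). With at least 2 H2-M2 UMIs asked of a cell and no thinning, the difference was 1.64 points and passed the threshold (exact permutation p = 0.00794, 0.0317 adjusted). That setting does not hold depth equal. With cells thinned to 6000 UMIs it was 2.14 points (exact permutation p = 0.341; 0.455 adjusted), isotype mice then reaching 8.38%. Between tumour genotypes the share differed by 0.0423 points under isotype (exact permutation p = 0.960; 0.960 adjusted) and by -0.465 points under CD40 (exact permutation p = 0.733; 0.960 adjusted), each B2m-null minus control. Both are smaller than the spread between mice of a group.

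**Figure D1:**
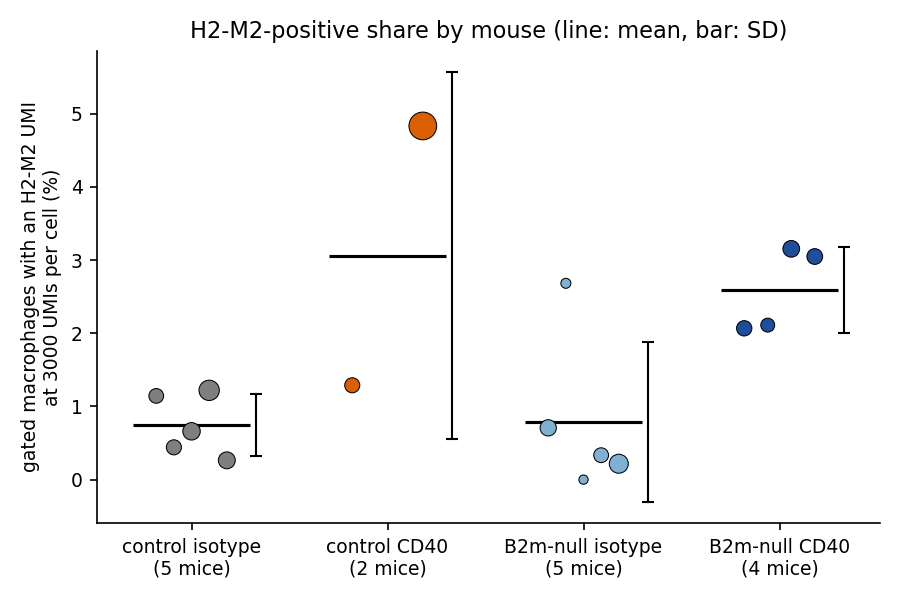
Percent of gated macrophages that keep at least 1 H2-M2 UMI after thinning to 3000 UMIs (vertical axis), by group (horizontal axis). Each point is a mouse, its size growing with the number of gated macrophages, and lines and bars give the mean and SD; the highest B2m-null isotype mouse (2.68%) lies among the CD40 mice, and 1 control CD40 mouse (4.83%) lies above all others.

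Higher shares in CD40 lanes were also seen among macrophages that failed a gate. Macrophages above the Mmp12 limit held H2-M2 in 4% and 4.95% of cells in control isotype lanes and 25.8% and 25.5% in control CD40 lanes. In B2m-null lanes those values were 3.79% and 2.41% under isotype and 10.1% and 16.8% under CD40. Macrophages above the Nos2 limit were similar, with 4.73% and 8.60%, 22.4% and 21.6%, 2.78% and 4.63%, and 10.5% and 16.2% in the same order. Interferon-signature macrophages, above the limit for Rsad2 and the Ifit genes, reached 13.2% and 12.4% in control CD40 lanes and 6.84% and 11.3% in B2m-null CD40 lanes, from at most 2.43% under isotype. Resident-like macrophages, above the limit for Lyve1, Cd163 and Cd209f, had the lowest shares of these sets in the control CD40 lanes (2.88% and 1.77%). Mature dendritic cells, defined by Ccr7 and Fscn1 with low C1q, held H2-M2 in 5.20% to 7.47% of cells in isotype lanes and 14.3% to 28.6% in CD40 lanes, the control CD40 values resting on 14 and 7 cells. These sets overlap each other, and no test was made between them.

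**Figure D2:**
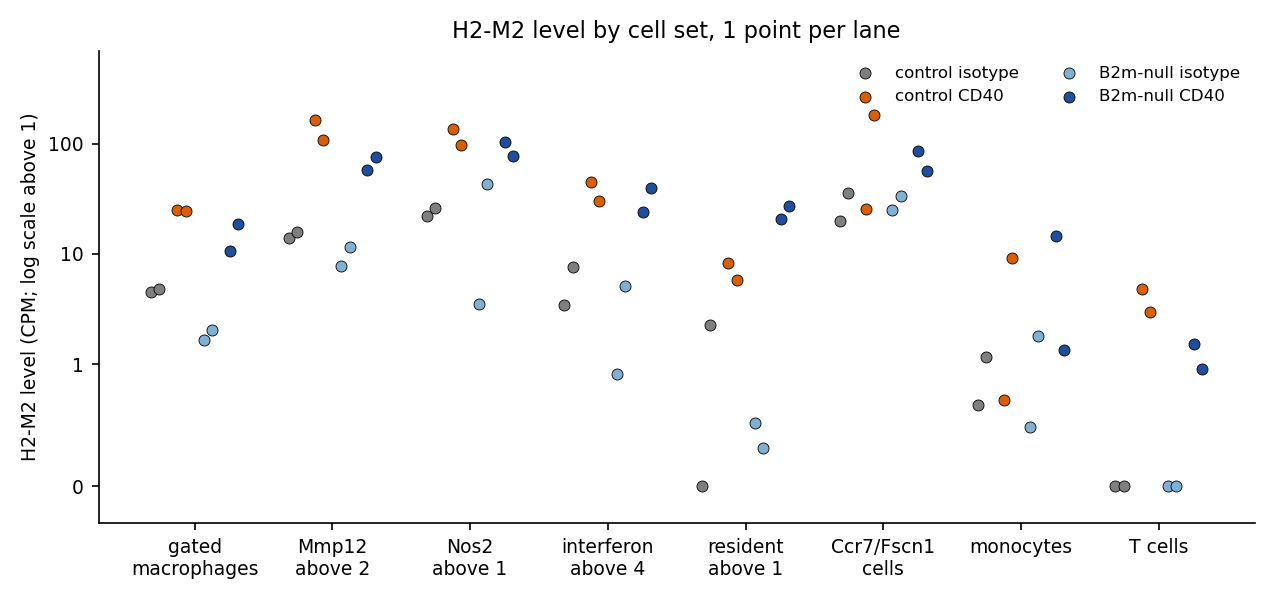
H2-M2 level in CPM (logarithmic above 1, linear below) for each lane, by cell set and group. In the CD40 lanes the gated macrophages sit at 10.6 to 25.2 CPM, below the macrophages above the Mmp12 limit at 58.2 to 165 CPM.

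Within pools, H2-M2-positive macrophages carried more of the 3 genes that mark them than H2-M2-negative ones in most but not all pools. Gpnmb was at 116, 314, 1169, 192, 49.8, 368 and 569 CPM in positive cells of the pools control isotype 1 and 2, control CD40, B2m-null isotype 1 and 2 and B2m-null CD40 1 and 2. Negative cells of the same pools had 99.9, 141, 464, 218, 148, 146 and 207 CPM. Positive cells were higher in 5 pools, including all 3 CD40 pools, and lower in both B2m-null isotype pools. Fabp5 was at 4116, 2528, 7625, 3525, 1737, 4981 and 5709 CPM against 2660, 2090, 3571, 2228, 2559, 1890 and 2890, higher in 6 of 7 pools with a median log2 ratio of 0.66. Il18bp was at 63.9, 234, 215, 42.7, 77.4, 147 and 158 CPM against 86.8, 71.5, 161, 35.1, 31.7, 88.0 and 92.5, also higher in 6 of 7 (median 0.71). C1qa, C1qb and C1qc, on which both sets were chosen alike, had median log2 ratios of 0.01, 0.01 and -0.05. After thinning to 3000 UMIs, Gpnmb was detected in 28.3% of positive and 16.9% of negative cells in control isotype tumours and in 78.1% and 37.3% in control CD40. In B2m-null tumours it was detected in 24.1% and 23.7% under isotype and in 49.9% and 20.9% under CD40 (unthinned, in the same order of groups, 42.6% and 24.7%, 82.98% and 39.1%, 33.3% and 32.8%, and 65% and 28.4%). The 2 sets thus had nearly equal shares in B2m-null isotype tumours, with 28 positive cells. All 3 were also found in negative cells, so none of them is a mark of H2-M2-positive cells alone.

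Over 6001 genes with a mean of at least 20 CPM, 130 (2.17%) were higher in positive cells in all 7 pools and 356 (5.93%) were lower in all 7, with a median log2 ratio over all genes of -0.08. Ratios are of CPM + 5, which understates differences of low genes. The antigen presentation genes stood high: 6 of the 7 described MHC class II genes were higher in every pool and none lower, with a list median of 0.62. H2-Eb1, a class II beta chain, was at 2744, 3420, 2249, 1015, 3014, 2732 and 4000 CPM in positive and 1464, 1297, 1667, 592, 917, 1531 and 2734 CPM in negative cells. H2-Aa (0.75), Cd74 (0.63), the class II invariant chain, and H2-DMb1 (0.50), a peptide-loading chain, were higher likewise. Of 16 classical class I and peptide-loading genes, 5 were higher in every pool and 1 lower (list median 0.22), among them H2-K1 (0.38), Tapbp (0.41) and B2m (0.21). Of 6 other non-classical class I genes, 3 were higher in every pool (list median 0.35), namely H2-Q6 (0.53), H2-T23 (0.43) and H2-M3 (0.28).

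Among the 15 genes with the highest median ratios, Itgax, which encodes the integrin CD11c, was at 93.0, 115, 76.3, 74.8, 122, 65.8 and 122 CPM against 43.8, 53.4, 23.9, 31.9, 29.5, 23.3 and 27.7. Its log2 ratio ran from 1.01 to 1.96, and the same direction in every pool was a condition for naming these genes. Members held 297 Itgax UMIs in 144 cells, and B2m-null isotype pool 1 had just 16 members. Ccl5, a chemokine that attracts T cells, had the highest median (1.53, from 0.77 to 3.07). Lyz1 (1.43), a lysozyme, and Pla2g7 (1.29), a secreted phospholipase that hydrolyses platelet-activating factor, followed. Pdcd1lg2 (1.21), which encodes the PD-1 ligand PD-L2, Mcemp1 (1.12), Phlpp1 (1.05), Malt1 (1.03), a paracaspase of NF-kB signalling, AW112010 (0.95), Acp5 (0.95), Sgk1 (0.92), Bcl2a1a (0.92), a survival factor with near-identical copies, Scimp (0.81) and Rasgrp1 (0.81) completed the group with H2-Eb1. In the lipid-associated macrophage list, 6 of 20 described genes were higher in every pool and 1 lower (median 0.26). Itgax, Cd9 (0.63), Cd63 (0.49), Apoe (0.45), Tyrobp (0.32) and Npc2 (0.25) were the higher ones and the scavenger receptor Cd36 (-0.64) the lower one. Other members of that list were mixed across pools, with medians of 0.27 for Trem2, -0.20 for Lpl, -0.17 for Spp1 and -0.93 for Fabp4. Of 18 CD40 and NF-kB response genes, Traf1 (0.59), a CD40 adaptor, and Bcl2a1b (0.57) were higher in every pool and none was lower.

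Of all 6001 genes described, 5.93% were lower in every pool. Of 17 phagocytosis and scavenger receptor genes, 5 were lower in every pool (list median -0.17), namely Mrc1 (-0.79), the mannose receptor, Gas6 (-0.77), Cd36, Pros1 (-0.42) and Fcgr1 (-0.38). The same list held 2 that were higher, the TAM receptors Axl (0.59) and Mertk (0.45), whose ligands are the Gas6 and Pros1 proteins. Arg1 (-0.69), which breaks down arginine, and Odc1 (-0.57), the next enzyme towards polyamines, were the 2 lower genes of 7 in their list, whose median was -0.05. Cell cycle genes had a list median of -0.62, with Ccnb1 (-1.22) and Tk1 (-0.62) lower in every pool and none of 17 higher, a share not far from that of all genes. The interferon-gamma list had a median of 0.12 with 1 of 26 lower, and the type I interferon list -0.15 with 0 of 17 in either direction; the rule itself limits interferon genes. The lowest medians included the collagen genes Col1a2 (-2.63), Col3a1 (-2.44) and Col1a1 (-1.69), the pigment genes Dct (-2.02), Tyrp1 (-1.54), Mlana (-1.47) and Pmel (-1.45), and Sparc (-1.98), Ptgds (-1.53) and Igfbp4 (-1.38). The other 5 of the lowest 15 were the heat shock genes Hspa1a (-1.74) and Hspa1b (-1.38), the mitotic activator Cdc20 (-1.38), Bcar3 (-1.30) and Slc13a3 (-1.29). Counts of several were small: over all members, Col1a2, Col3a1 and Col1a1 had 2, 11 and 13 UMIs and Sparc had 18. Of the member UMIs of Dct, Tyrp1 and Ptgds, 47.4%, 48.7% and 51.3% came from 1 cell each. Cells under 5000 UMIs, cells with 1 H2-M2 UMI, and the 9 members with dendritic cell transcripts were left out, each in turn. All 30 named genes then kept their direction of median. The genes were chosen for that direction in many of the same cells, so this outcome was largely set beforehand.

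**Figure D3:**
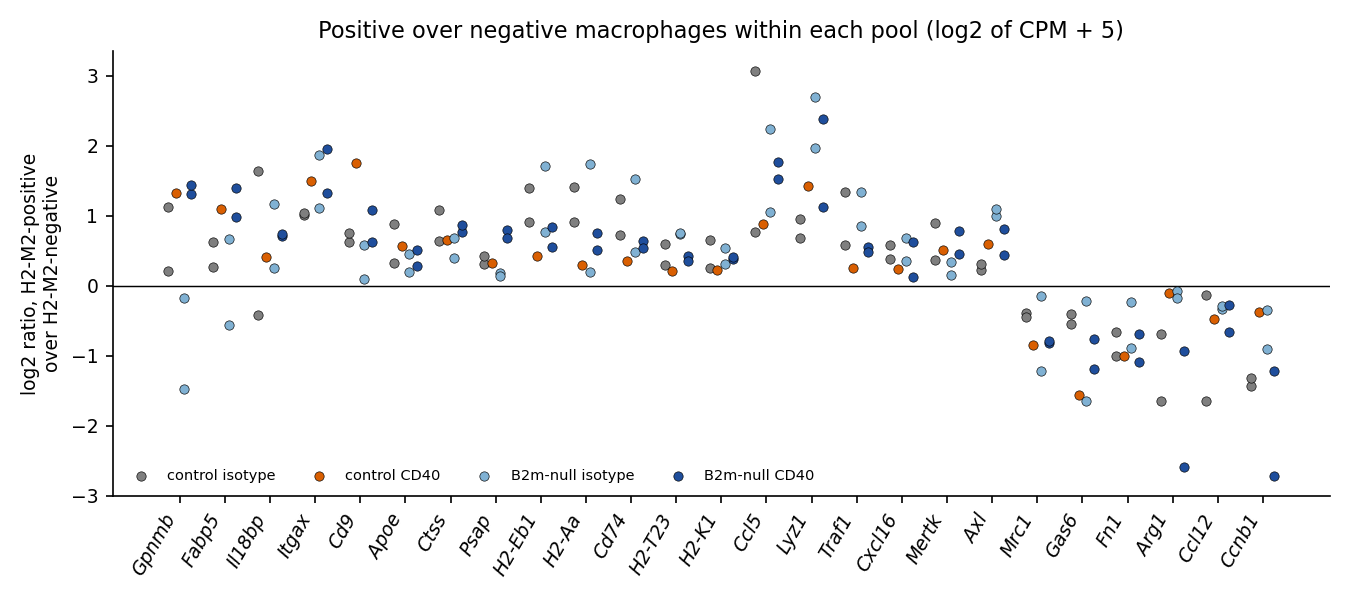
Log2 ratio of CPM + 5 in H2-M2-positive over H2-M2-negative macrophages (vertical axis) for 25 genes, with a point for each of the 7 pools and the line at 0 marking equal levels. Itgax, Ccl5, H2-Eb1 and Cd74 lie above 0 in every pool and Mrc1, Gas6, Arg1 and Ccnb1 below it, while Gpnmb, Fabp5 and Il18bp cross it.

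Levels also differed with the number of H2-M2 UMIs within the CD40 groups. In control CD40 tumours, Gpnmb was at 464 CPM in the 3330 cells with 0 UMIs and 918, 1056, 1697 and 1483 CPM in the 94, 42, 25 and 27 cells with 1, 2, 3 or 4, and at least 5. Fabp5 ran 3571, 6576, 6674, 10060 and 9339 CPM, Itgax 23.9, 64.3, 63.8, 91.3 and 108 CPM, and Cd9, a tetraspanin, 74.2, 201, 195, 351 and 425 CPM. Every bin above 0 exceeded the bin at 0 for these 4 genes, and the order among the higher bins was not strict. In B2m-null CD40 tumours, Gpnmb ran 181, 370, 286, 631 and 840 CPM over 3489, 58, 19, 19 and 24 cells, and Fabp5 2471, 3801, 4761, 4601 and 9162 CPM. Arg1 ran the other way, at 249, 109, 67.9, 11.8 and 14.2 CPM. Il18bp ran 161, 175, 223, 370 and 178 CPM in control CD40 and 90.6, 145, 131, 165 and 182 CPM in B2m-null CD40. Median UMIs per cell moved with the bins, from 4228 to between 5665 and 8334 in control CD40 and from 5518 to between 6383.5 and 11520.5 in B2m-null CD40. Their part in these levels was not tested, and the bins of 19 cells are thin.

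**Figure D4:**
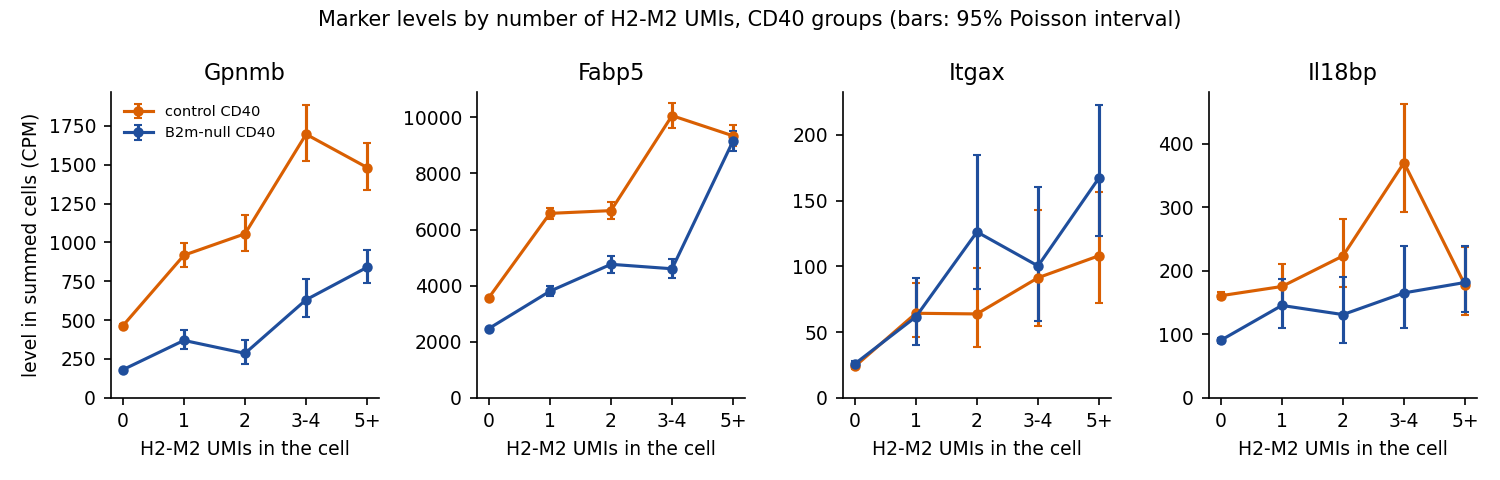
Levels of Gpnmb, Fabp5, Itgax and Il18bp in CPM by the number of H2-M2 UMIs in a cell (0, 1, 2, 3 or 4, and at least 5), for the 2 CD40 groups. Bars are 95% Poisson intervals, which cover counting error only; Gpnmb, Fabp5 and Itgax are higher in every bin above 0 than at 0.

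The CD40 effect inside H2-M2-positive macrophages was tested on summed counts per pool, since 4 of 16 mice held at least 20 members. With edgeR's quasi-likelihood test and Benjamini-Hochberg adjustment over 5601 genes, 35 genes (0.625%) changed in control tumours, 26 up and 9 down, with a median log2 fold change over all genes of -0.02. Control CD40 is 1 pool, and its spread is assumed to be that of the other groups. Without control isotype pool 1 or 2, there were 4 and 5 calls in control tumours. Without the cells of the control CD40 mouse that gave 164 of the members, there were 7 calls, 5 of them among the 35. Over all runs that left out a lane, a pool or a mouse's cells, the count ran from 4 to 98. In B2m-null tumours 76 genes (1.36%) changed, 54 up and 22 down (median over all genes -0.04). The excess of rises was absent with the mouse as the unit: 61 up and 59 down of 1535 genes in edgeR with at least 3 members per mouse, and 38 up and 67 down in limma. There were 28 calls without B2m-null isotype pool 1 and 31 without control isotype pool 2, and a range of 28 to 102 over such runs. DESeq2 called 9 genes in control and 45 in B2m-null tumours, sharing 8 and 43 with edgeR. Genes called in every run that left out a lane or pool were 3 of the 35 (Saa3, Ccr7 and Dct, the last tested in 7 of the 8 runs) and 15 of the 76 (among them Saa3, Ly6i, Cfb, C3, Clec4e, AW112010, Prdx5, Sod2, Cybb, Lyz1, Fth1, Aif1, Rel and Ccr7). Leaving out a lane of the other tumour type keeps the compared pools whole, so only some of the 8 runs change them. The pools of a group are separate pools of mice, but how far they share a day or a run is not given in the sources used here.

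Saa3 and Lyz1 rose under CD40 with both tumour types, and their levels were also higher under CD40 in H2-M2-negative cells. Saa3, an acute phase apolipoprotein that macrophages make under inflammatory signals, was at 5.81 and 22.98 CPM in control isotype pools and 1010 CPM in control CD40. It rose by 6.11 ± 0.50 (log2, SE; edgeR adjusted p = 5.03e-06), although 58.6% of the CD40 counts came from 1 cell, without which the level was 422 CPM. In B2m-null tumours Saa3 had no count in both isotype pools and 608 and 314 CPM under CD40, at least 35.2-fold higher if the isotype group is set to 3 counts in all (edgeR adjusted p = 5.46e-05). Lyz1 was at 34.9 and 26.8 CPM against 302 in control tumours (log2 3.47 ± 0.47, edgeR adjusted p = 0.00108; 32.3% of the CD40 counts from 1 cell), and at 182 and 144 against 848 and 393 CPM in B2m-null tumours (2.16 ± 0.36, edgeR adjusted p = 0.00492). In control tumours the Lyz1 call was lost without either isotype pool. Of the 4 tested genes of the acute phase and lysozyme list, 2 rose in control tumours (list median 1.86). In B2m-null tumours 3 rose (1.94), Lyz2 being the third. In H2-M2-negative cells Saa3 was at 7.91 and 4.40 against 366 CPM in control tumours. In B2m-null tumours it was at 10.7 and 15.5 against 161 and 173 CPM there. Negative cells had Lyz1 at 15.7 and 14.9 against 109 CPM, and 23.8 and 33.1 against 159 and 177 CPM. The Saa3 response differed between the sets by 0.06 in control tumours and did not pass. It passed in B2m-null tumours (edgeR adjusted p = 0.00816), but not after thinning (edgeR adjusted p = 0.380).

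Of the genes that mark these cells, Gpnmb rose in both tumour types and Fabp5 in one of them. Gpnmb, at the levels given above, rose by 2.54 ± 0.45 (log2, edgeR adjusted p = 0.0144) in control and 2.41 ± 0.49 (edgeR adjusted p = 0.0170) in B2m-null tumours. CD40 pools lay above isotype pools in both, but DESeq2 did not call Gpnmb (adjusted p = 0.324 and 0.333), and edgeR did not without control isotype pool 1 (0.238) or 2 (0.0511), or without B2m-null isotype pool 2 (0.117). Fabp5 rose in B2m-null tumours (1.28 ± 0.31, edgeR adjusted p = 0.0467), a call kept in 4 of 8 runs without a lane or pool, and its change of 1.37 ± 0.35 in control tumours did not pass (edgeR adjusted p = 0.0870). The change of Il18bp was 0.61 in control tumours (edgeR adjusted p = 0.785). In B2m-null tumours Il18bp was at 42.7 and 77.4 CPM under isotype and 147 and 158 CPM under CD40. Its change there was positive, lay between those of Fabp5 and Gpnmb, and did not pass the threshold. Of 20 tested lipid-associated genes, 1 rose in control (Gpnmb; list median 0.44) and 2 in B2m-null tumours (Gpnmb and Fabp5; 0.63). Lysosomal genes had list medians of 0.42 with 0 of 22 called in control and 0.33 with 2 of 22 called in B2m-null tumours. Over all 5601 genes, 35 and 76 were called. The 2 lysosomal calls were Ctsz and Ctsk, the second with 92.6% of its CD40 counts from 1 cell. The Ctsz call was kept in 3 and the Ctsk call in 2 of 8 runs without a lane or pool.

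Of 9 tested iron-handling genes, 1 rose in control tumours (list median 0.49), and 2 rose and 1 fell in B2m-null tumours (-0.08). Fth1, the ferritin heavy chain, was at 14690 and 18504 CPM against 37328 in control tumours (1.33 ± 0.28, edgeR adjusted p = 0.0336) and at 14593 and 14956 against 32642 and 39069 CPM in B2m-null tumours (1.52 ± 0.25, edgeR adjusted p = 0.00431). CD40 pools exceeded isotype pools in both, while the control call was lost without either isotype pool. Prdx1, Prdx5, Sod2 and Cybb, which act on reactive oxygen, belong to no list and were picked from the calls. Prdx1, a peroxiredoxin, rose in control tumours (1878 and 1471 against 4491 CPM; 1.59 ± 0.31, edgeR adjusted p = 0.0271). Prdx5, another peroxiredoxin, rose in B2m-null tumours (342 and 387 against 1660 and 1310 CPM; 2.24 ± 0.27, edgeR adjusted p = 0.000255), as did the superoxide dismutase Sod2 (2.16) and Cybb (1.57), a subunit of the phagocyte oxidase. Hmox1, which breaks down haem, fell in B2m-null tumours (1602 and 1781 against 809 and 559 CPM; -1.09, edgeR adjusted p = 0.0450), opposite to Fth1. The Hmox1 value was 0.41 among members with at least 2 H2-M2 UMIs, and 34.3% of the isotype counts came from 1 cell. The Hmox1 call was kept in 3 of 8 runs without a lane or pool.

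In B2m-null tumours 3 of 26 interferon-gamma response, 2 of 17 type I interferon-stimulated and 2 of 8 complement genes rose and none fell. Of all 5593 genes outside the rule, 54 rose and 22 fell. Ly6i, a member of the Ly6 surface protein family, was at 10.7 and 11.1 CPM under isotype and 364 and 188 CPM under CD40 (4.79 ± 0.57, edgeR adjusted p = 0.000255), and rose in control tumours as well (11.6 and 15.3 against 79.1 CPM; 2.65 ± 0.57, edgeR adjusted p = 0.0336). The interferon-gamma genes that rose included Gbp2 and Acod1 (list median 0.83), and the type I genes were Irf7 and Ifitm3, with all 17 positive and a median of 1.30. In control tumours 0 of 26 and 0 of 17 passed, with medians of 0.22 and -0.40 and 3 of the 17 positive. Class I genes H2-K1 (2051 and 2163 against 3630 and 3526 CPM; 1.00 ± 0.24, edgeR adjusted p = 0.0495) and Psmb10 rose in B2m-null tumours (2 of 15; list median 0.99), while B2m, at 0.99, did not pass (edgeR adjusted p = 0.0509). The H2-K1 call was kept in 2 and the Psmb10 call in 3 of 8 runs without a lane or pool. Under isotype, most genes of these lists were lower in B2m-null than in control tumours. As B2m-null minus control, the interferon-gamma list had a median of -1.005 under isotype (2 of 26 positive) and -0.15 under CD40 (10 positive). The type I list had -0.89 under isotype (2 of 17 positive) and 0.71 under CD40 (15 positive). For the class I list these were -0.75 (3 of 15 positive) and 0.20 (11 positive). No gene of these lists passed between genotypes (edgeR). The complement genes that rose were Cfb and C3 (list median 0.30). Cfb was at 32.0 and 66.4 against 759 and 342 CPM (3.53 ± 0.44, edgeR adjusted p = 0.000305). C3 was at 10.7 and 166 against 681 and 458 CPM (2.63 ± 0.46, edgeR adjusted p = 0.00656). H2-M2-negative cells of B2m-null tumours also had more Ly6i and Cfb under CD40. There Ly6i was at 3.10 and 7.39 CPM under isotype and 194 and 76.2 CPM under CD40. Cfb was at 44.7 and 52.3 against 294 and 237 CPM in those cells.

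Whether the CD40 effect differed between tumour types was tested directly, and 0 of 5601 genes (0%) passed in edgeR, with 367 at an unadjusted p under 0.05; DESeq2 called 0, with 111. The contrast in interferon genes between tumour types is therefore not shown by a test.

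Further calls are given gene by gene. Clec4d, a C-type lectin, was at 52.3 and 65.1 against 274 CPM in control tumours (2.35 ± 0.35, edgeR adjusted p = 0.00306; lost without either control isotype pool). Clec4e, the receptor Mincle, was at 42.7 and 27.7 against 650 and 205 CPM in B2m-null tumours (3.84 ± 0.57, edgeR adjusted p = 0.00223). Acod1, which makes itaconate, was at 0 and 11.1 against 190 and 89.6 CPM in B2m-null tumours, a ratio of 15.6 with a counting interval of 4.23 to 131. Dct (172.6 CPM in control CD40 against 0 and 3.83), Mlana and Tyrp1, pigment genes of melanoma cells, also rose in control tumours, with 49.6%, 43.9% and 54.4% of their counts from 1 cell each. Summed melanoma markers were 471 CPM in control CD40 members against 38.3 to 116 CPM in other pools, and H2-M2-negative cells had 98.1 to 657 CPM; their part in the result was not tested. Plpp3, a lipid phosphatase of the cell surface, was at 5.81 and 0 CPM against 59.9 in control tumours, a ratio of 25.9 with a counting interval of 4.53 to 1037. Rnf128, a ubiquitin ligase, was at 0 and 11.5 CPM against 83.4, a ratio of 12.0 with an interval of 4.02 to 59.2. S100a8 and Mmp9, neutrophil genes that rose in B2m-null tumours, had 81.9% and 71.4% of their CD40 counts in 1 cell. Both calls were kept in 3 of 8 runs without a lane or pool. Mmp9 also rose in control tumours (11.6 and 0 against 87.0 CPM, log2 4.29 ± 0.83, edgeR adjusted p = 0.0278). There 58.2% of its CD40 counts came from 1 cell. Acod1 and Clec4e were also higher under CD40 in H2-M2-negative cells of B2m-null tumours. Acod1 was at 10.9 and 10.2 against 148 and 62.0 CPM there, and Clec4e at 45.4 and 51.8 against 143 and 94.1 CPM.

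Dendritic cell markers fell in both tumour types. In B2m-null tumours 2 of 4 tested fell, Ccr7 and Cd209a (list median -4.97). Their isotype counts came from 3 cells each, with 81.5% of the Ccr7 and 50% of the Cd209a counts from 1 cell. The Cd209a call was kept in 3 of 8 runs without a lane or pool. Of 5 tested resident-like macrophage markers 2 fell there, Mrc1 and Fcrls (list median -1.12). Of all 5593 genes outside the rule, 22 fell in B2m-null tumours. Ccr7, the receptor that guides dendritic cells to lymph nodes, was at 215 and 130 CPM in control isotype pools and 0.713 in control CD40, a ratio of 229.9 between the groups with a counting interval of 40.0 to 9207. The isotype counts came from 6 cells, and Fscn1, Ccl22, Cd209a and Mgl2 fell beside it. For Cd209a the control isotype counts came from 3 cells, with 70% from 1 cell. Of 4 tested dendritic cell markers, 3 fell. Tbc1d4 (127.9 and 61.3 against 9.27 CPM) and Cbfa2t3 (40.7 and 72.8 against 5.70 CPM) fell with them. Both fell in B2m-null tumours as well, Cbfa2t3 with 72.4% of its isotype counts from 1 cell. Without the 9 members with Ccr7 and Fscn1 transcripts, 54 genes passed in control tumours and 115 in B2m-null tumours, sharing 29 and 65 with the calls above. Ccr7, Fscn1, Ccl22, Tbc1d4 and Cbfa2t3 then had too few counts to be tested in control tumours, as had Ccr7, Tbc1d4 and Cbfa2t3 in B2m-null tumours. Mgl2 and Cd209a still passed in control tumours (-5.35 and -6.16), and Cd209a did not in B2m-null tumours (-6.21, edgeR adjusted p = 0.14). Without those cells Rel and Mrc1 fell by 1.78 and 1.79 (edgeR adjusted p = 0.014 and 0.00122). Lsp1, a leukocyte actin-binding protein, fell in both tumour types (198 and 207 against 47.8 CPM; 160 and 310 against 46.4 and 47.3 CPM), and its adjusted p in edgeR became 0.57 and 0.38 without those cells. In B2m-null tumours Mrc1 fell from 1581 and 769 to 209 and 399 CPM (-1.62 ± 0.34, edgeR adjusted p = 0.0199), the single call among 17 phagocytosis and scavenger receptor genes; its call was kept in 4 of 8 runs without a lane or pool. Fcrls, a gene of resident macrophages and microglia, fell from 182 and 99.6 to 0 and 18.7 CPM. Its call was kept in 3 of 8 runs without a lane or pool. In H2-M2-negative cells Fcrls was at 124 and 159 CPM under isotype and 15.4 and 41.5 CPM under CD40. Retnla, a gene of interleukin-4 activated macrophages, fell from 149.6 and 205 to 3.87 and 28.6 CPM, with 60.8% of its isotype counts from 1 cell. Rel, an NF-kB subunit, fell from 246 and 171 to 42.6 and 38.6 CPM (-2.09 ± 0.35, edgeR adjusted p = 0.00492), the single call among 18 CD40 and NF-kB response genes (list median 0.42, 13 positive). In control tumours that list had 1 gene lowered and none raised, with 3 of 18 positive and a median of -0.71. Mki67, a marker of cycling cells, fell from 331 and 116 to 58.1 and 41.1 CPM (-1.88 ± 0.44, edgeR adjusted p = 0.0428), and all 15 tested cell cycle genes were negative (median -0.89), 1 of them called. The Mki67 call was kept in 4 of 8 runs without a lane or pool, and the value was -1.11 without B2m-null isotype pool 1 (edgeR adjusted p = 0.434). In control tumours 0 of 15 passed, with a median of -0.03. MHC class II genes, high in positive cells, gave 0 of 9 calls in either tumour type (medians -0.30 in control, 0.59 in B2m-null).

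**Figure D5:**
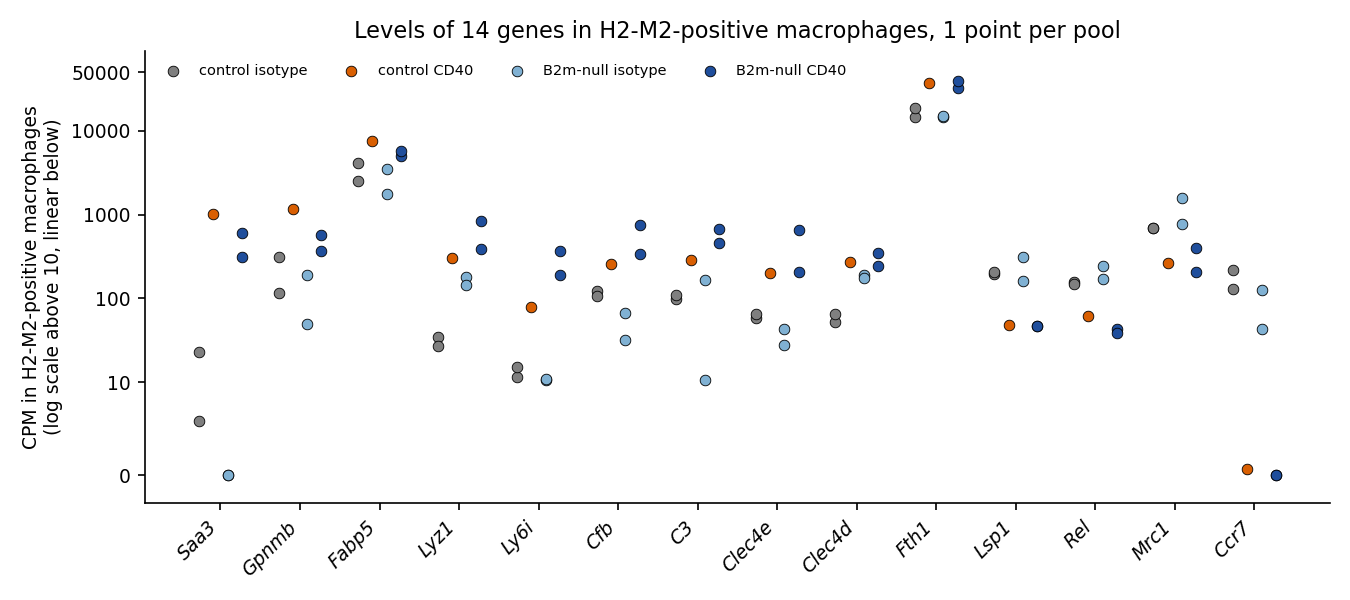
Level in CPM (logarithmic above 10, linear below) of 14 genes in H2-M2-positive macrophages, with a point per pool and a colour per group. Saa3, Lyz1, Gpnmb and Fth1 are higher in all CD40 pools than in isotype pools of the same tumour type, and Ccr7 and Lsp1 lower; control CD40 has 1 pool.

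Between tumour genotypes few genes differed. Under isotype 1 of 5601 genes (0.0179%) passed, with 335 at an unadjusted p under 0.05. This was Hmox1, at 366 and 456 CPM in control and 1602 and 1781 CPM in B2m-null tumours (1.95 ± 0.27, edgeR adjusted p = 0.00705); 34.3% of the B2m-null counts came from 1 cell, and the call was lost without either control isotype pool. Under CD40 5 of 5601 genes (0.0893%) passed, 2 higher and 3 lower in B2m-null tumours. Without the cells of the control CD40 mouse with 164 members, 1 of 4372 genes passed, and it was none of these 5, so all 5 calls rest on that mouse. Cxcl3, a neutrophil-attracting chemokine, was at 1.43 CPM in control and 132 and 69.7 CPM in B2m-null tumours, a ratio of 59.4 with a counting interval of 15.98 to 498. Tmem176a, a membrane protein of myeloid cells, was at 19.965 against 147 and 138 CPM (2.80 ± 0.46, edgeR adjusted p = 0.0122). The 3 lower genes were the melanoma transcripts Dct, Mlana and Tyrp1. Gpnmb differed by -1.30 and did not pass (edgeR adjusted p = 0.773).

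The response to CD40 was then compared between H2-M2-positive and H2-M2-negative macrophages of the same pools, by testing the difference of the 2 responses with pool as a block over 12648 genes. In control tumours 19 genes (0.15%) differed, 7 with a larger and 12 with a smaller log2 change in positive cells, and DESeq2 called 0, with 149 at an unadjusted p under 0.05. In B2m-null tumours 41 genes (0.324%) differed, 25 larger and 16 smaller, and DESeq2 called 3 of them, Gpnmb, Fth1 and Crip1. On cells thinned to 3000 UMIs the split was 8 larger and 1 smaller in control and 9 larger and 0 smaller in B2m-null tumours, the median of all genes being 0.22 and 0.35. With RLE in place of TMM scaling the B2m-null split was 15 larger and 22 smaller of 37, as the median of all genes moved from 0.15 to 0.02 (log2), so the balance of larger and smaller responses depends on the scaling and depth. Leaving out a lane, a pool or a mouse's cells gave 8 to 42 calls in control and 8 to 77 in B2m-null tumours, with 10 and 8 without B2m-null CD40 pool 1 or 2. Calls present in every run without a lane or pool were 4 of the 19 (Spp1, Fabp4, Hmox1 and Lsp1) and 1 of the 41 (Gpnmb). Without the cells of the control CD40 mouse with 164 members, control tumours had 17 calls, 3 larger and 14 smaller, and 4 of them were among the 19, so the other 15 rest on that mouse.

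In B2m-null tumours the positive cells were below or near the negative ones for Gpnmb under isotype (log2 ratios of -0.18 and -1.48) and above them under CD40 (1.31 and 1.44). The difference in response was 2.42 ± 0.30 (edgeR adjusted p = 1.02e-11), and it passed in DESeq2 (adjusted p = 0.0338) and after thinning of cells to 3000 UMIs (1.95, edgeR adjusted p = 0.00110). Fabp5 followed with ratios of 0.66 and -0.56 against 1.40 and 0.98 (1.35 ± 0.20, edgeR adjusted p = 7.53e-08), though DESeq2 did not call it (adjusted p = 1). Fth1 had ratios of -0.09 and -0.29 against 0.80 and 0.73 (1.18 ± 0.19, edgeR adjusted p = 1.5e-06). The other calls with a larger response in positive cells included the cathepsin Ctsd (1.18), Lamp1 (0.87), the saposin precursor Psap (0.80), Cd63 (0.93), Lipa (1.11), the lysosomal lipase, and Plin2 (0.91), which coats lipid droplets. They were picked after their values were seen, DESeq2 called none of these 6, and each lost its call in 2 or 3 of 8 runs without a lane or pool. Arg1 had a smaller response in positive cells (-1.54, edgeR adjusted p = 0.00022), at -0.26 after thinning. Il18bp did not pass, with a difference of -0.01 ± 0.40 and of -0.66 after thinning (edgeR adjusted p = 1 for both).

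In control tumours Spp1, which encodes osteopontin, had ratios of -0.08 and -0.90 under isotype and 1.65 under CD40 (2.26 ± 0.26, edgeR adjusted p = 1.83e-14). B2m-null CD40 pools 1 and 2 had Spp1 ratios of -2.09 and 0.48. In the control CD40 bins of 3 or 4 and at least 5 H2-M2 UMIs, 64.1% and 55.1% of Spp1 counts came from 1 cell. Control CD40 is 1 pool, so the SEs and p-values here take the spread of its ratio from the other groups. Fabp4, a further fatty acid chaperone, had ratios of -1.14 and -2.07 against 0.43 (2.24 ± 0.32, edgeR adjusted p = 2.6e-08), and Cd9 had 0.63 and 0.76 against 1.76 (1.16 ± 0.28, edgeR adjusted p = 0.0263). Hmox1 had -1.17 and -1.67 against 0.17 (1.69 ± 0.26, edgeR adjusted p = 3.23e-07). Cd9 kept its call in 3 of 8 runs without a lane or pool. Pltp, a phospholipid transfer protein, had a smaller response in positive cells, with ratios of -1.07 and 1.14 under isotype and -0.92 under CD40 (-1.39 ± 0.29, edgeR adjusted p = 0.00268). This turned to 0.29 without control isotype pool 2, and the difference did not pass in DESeq2 or after thinning (-0.71; adjusted p = 1 for both). For Gpnmb the difference in control tumours was 0.56 and did not pass (edgeR adjusted p = 1), positive cells being higher under both treatments (0.21 and 1.13 against 1.32). Ccl5 had a smaller response in positive cells (-1.26, edgeR adjusted p = 0.00124), but -0.09 without the 9 members with dendritic cell transcripts and 0.20 without control isotype pool 2. Lsp1 (-1.65), Tmem176a (-2.41), Cd9 and Clec4d lost their calls without those 9 members.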

How the data were processed

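Single-cell RNA was measured on 8 lanes with droplet-based 3′ chemistry. The authors deposited raw UMI counts per gene and barcode for 32285 genes plus hashtag counts; per the submitters' processing notes, bcl2fastq 2.20.0.422 and Cell Ranger 3.0.0 were used with the mm10 genome build, in roles those notes do not give. How the authors filtered barcodes or removed doublets is not given in the sources used here, and no doublet caller was run; hashtags left 328 of 392 members assigned to a mouse. The labels list 3 hashtags per pool, and 2 lanes' files hold 3 and 6 hold 2.

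From these counts, a barcode was kept with 200 or more genes and a mitochondrial share no higher than 10%, and the members taken by the rule in the text. Hashtag counts above the background of each tag (2.5 SD, at least 20 counts, posterior 0.9) assigned cells to mice. Each cell was thinned to 3000 UMIs for shares, which were compared over 16 mice with two-sided exact permutation tests, and p-values were adjusted by the Benjamini-Hochberg method over 4 comparisons. Summing counts by mouse with at least 20 members was planned for the fits across genes, but 4 mice reached that number, so sums by pool (7 pools), first listed as the second choice, were used throughout, and a minimum of 50 members per mouse was not run. The 2 lanes of control CD40 are technical and count as 1 pool. Fits used edgeR 4.0.16 (filterByExpr, TMM, glmQLFit and glmQLFTest over all 4 groups, threshold 0.05 after adjustment), with DESeq2 1.42.0 and limma 3.58.1 as alternatives, in R 4.3.3, and Python 3.11.15 with numpy 2.4.6, scipy 1.17.1, pandas 2.3.3 and scikit-learn 1.9.0. SE is that of the log2 fold change. The difference in response between H2-M2-positive and H2-M2-negative cells was fitted with pool as a block. Fits were tested on simulated counts. Levels are CPM of summed UMIs, ratios within pools use a pseudocount of 5 CPM, and intervals are 95% and cover counting error only. An upper limit for a share of 0 is 3 cells of the total.

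The text names, for each comparison, from the 8 called genes with the largest rise and the 8 with the largest fall, with at least 20 CPM in the higher group and no overlap between pools, and the genes of the lists. For the description it names the 15 highest and 15 lowest median ratios among genes with the same direction in every pool; genes of the rule were left out. A few others were named after their values were seen (Clec4d, Prdx1, Prdx5, Sod2 and Tmem176a among them). The members and lists were chosen with earlier results of these data known. Replicate numbers do not pair the pools: deviations of same-numbered pools correlated at -0.00756, 0.0765 and -0.0515. Of the genes that passed the test, 1 is not reported here.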

Additional observations from a re-analysis of the deposited data

Results flagged for a closer look

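In B2m-null isotype tumours, 1 of 5 mice stood apart from the others, with a thinned share of H2-M2-positive macrophages of 2.68% against 0% to 0.708%. Before thinning, 2 of its 85 gated macrophages held H2-M2, and 47 of the 85 were deep enough to thin. Such a test singles out about 1 in 20 groups by chance, and 8 combinations of a group and a measure were looked at. Without this mouse the difference between CD40 and isotype in B2m-null tumours was 2.28 percentage points, given without a test because the mouse was singled out by its own share.

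The response to CD40 differed by test between H2-M2-positive and H2-M2-negative macrophages for 19 genes in control tumours and for 41 genes in B2m-null tumours (edgeR, interaction of treatment and cell set with pool as a block). In control tumours the genes with larger responses in positive cells included Spp1, Fabp4 and Hmox1, and in B2m-null tumours Gpnmb, Fabp5 and Fth1. DESeq2 called Gpnmb and Fth1 but not the others named here. Calls kept in every run without a lane or pool were 4 of the 19 and 1 of the 41. Control CD40 is a single pool, and most of the control calls rest on a single mouse, as given above.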

How the results depend on the processing

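Differences in the share of H2-M2-positive macrophages between CD40 and isotype kept their direction in all alternatives run. The control difference ran from 0.543 to 4.09 percentage points, and the B2m-null one from 1.61 to 2.28, with each mouse left out in turn. The B2m-null difference was 1.64 and passed the threshold with at least 2 H2-M2 UMIs and no thinning. With cells thinned to 6000 UMIs the control difference was 5.34 and the B2m-null one 2.14 (exact permutation p = 0.341), and the genotype differences were 0.726 under isotype and -2.46 under CD40. The genotype difference under isotype turned to -0.148 without thinning and to -0.309 with at least 2 UMIs, also unthinned. It was -0.338 with the lane as the unit and -0.326 with at least 100 gated macrophages per mouse. It ran from -0.431 to 0.239 with each mouse left out, turning also at -0.0338 and -0.0782. Under CD40 it turned to 0.119 with a C1q sum of at least 20 and ran from -2.24 to 1.31 with each mouse left out.

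Counts of called genes moved more, and the causes were not tested. The CD40 calls in control tumours (35) became 9 with DESeq2, 9 with at most 5% mitochondrial UMIs, 20 with at least 2 H2-M2 UMIs, 54 without members with Ccr7 and Fscn1 transcripts, 70 without the 5% of cells with the most UMIs, 71 by mouse with at least 3 members, 73 without hashtag doublets, 139 without the low-count filter, 142 with limma by mouse and 305 by mouse with at least 20. Those in B2m-null tumours (76) became 45, 42, 36, 115, 120 by mouse with at least 3 members (61 up, 59 down), 105 with limma by mouse (38 up, 67 down), 163 without doublets and 200 without the filter. Genotype calls under isotype (1) became 2 with DESeq2, 0 at 5% mitochondrial UMIs, 3 with at least 2 UMIs, 3 without the Ccr7 and Fscn1 members, 7 without the deepest cells, 3 by mouse with at least 3, 4 without doublets, 16 without the filter and 0 with limma by mouse. Genotype calls under CD40 (5) became 3, 1, 3, 14, 2, 1, 9, 33 and 64 in that order, and 230 by mouse with at least 20 members. For the difference of the CD40 effects between genotypes (0), counts were 5 without the Ccr7 and Fscn1 members, 2 without the deepest cells, 10 by mouse with at least 3, 4 without doublets, 19 without the filter and 8 with limma by mouse. The limma fit changes the tool, the unit and the genes tested (1535) and takes pool as a random block, so its counts show no effect of the tool alone. Genes responding differently in positive and negative cells became 0 with DESeq2, 9 with thinned cells and 12 without the Ccr7 and Fscn1 members in control tumours (19), and 3 and 9 in B2m-null tumours (41). Of the 9 with thinned cells, 8 were larger responses in control and 9 in B2m-null tumours. Fits with at least 20 members per mouse rest on 4 mice and leave out the other comparisons.

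With a lane, pool or mouse left out in turn, the counts ran from 4 to 98 (CD40, control), 28 to 102 (CD40, B2m-null), 0 to 9 (genotype, isotype), 1 to 29 (genotype, CD40), 0 to 23 (difference of CD40 effects), and 8 to 42 and 8 to 77 (positive against negative cells, control and B2m-null). With the replicate block, B2m-null CD40 calls were 80 of 3920 genes (68 shared), genotype calls under isotype 2, and no other comparison has 2 pools on each side. For the 60 values of named genes within positive cells, 782 alternatives kept direction and side of the threshold, 273 lost the call, and 1 turned: Hmox1 under CD40 in B2m-null tumours, at 0.41 (log2) with at least 2 H2-M2 UMIs. Outside that tally, the differences between positive and negative cells in control tumours turned to 0.20 for Ccl5 and 0.29 for Pltp without control isotype pool 2. A minimum of 50 members per mouse was not run, as 1 mouse would remain. Lanes held 14 to 96 members, which limits the precision for genes of few counts.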

Other observations

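A few genes that rose under CD40 in control tumours encode small mitochondrial proteins. They were picked after their values were seen, belong to no list, and lost their calls in 2 or 3 of 8 runs without a lane or pool. Of these runs, only the 2 without a control isotype pool took away a whole pool of this comparison. Cox17, a copper chaperone of cytochrome oxidase, was at 180 and 146 CPM in control isotype pools of H2-M2-positive macrophages and 433 CPM in control CD40. Atp5md, Tomm6, Ndufb1-ps and Uqcr11 rose by 1.57, 1.47, 1.46 and 1.32 (log2), and H2-M2-negative macrophages of the same pools had Uqcr11 at 291, 325 and 655 CPM. Glycolysis and hypoxia genes had a list median of 0.58 in control tumours, with 21 of 22 positive, and 0.46 in B2m-null tumours, and 0 of 22 passed in either (edgeR). Cholesterol and lipid efflux genes had a median of -0.41 in B2m-null tumours, with 0 of 15 called. The linker histone genes Hist1h1b and Hist1h1e, which belong to no list, fell in B2m-null tumours beside Mki67. Hist1h1b went from 267 and 66.4 CPM under isotype to 11.6 and 2.49 CPM under CD40 (-4.60 ± 0.74, edgeR adjusted p = 0.0041). Its isotype counts were 37 UMIs from 6 cells. The Hist1h1e call was kept in 3 of 8 runs without a lane or pool.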
